A study of Mus musculus with 6 samples.

Results

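The genes described are those for the 4 surfactant proteins of the mouse lung (Sftpa1, Sftpb, Sftpc and Sftpd), for the proteases Napsa and Ctsh, and for the lysozymes Lyz1 and Lyz2. They were chosen by symbol, among array probe sets annotated to exactly 1 gene, and 8 of 8 were found among the 19938 genes tested, each with 1 probe set. Messenger RNA of type II alveolar epithelial cells, the surfactant-secreting cells of the lung, had been measured on 6 Affymetrix mouse arrays. The 3 pools labelled knockout came from Gpr116flx/flx mice that also carried the transgenes SP-C-rtTA and (tetO)7CMV-Cre. The 3 control pools came from littermates with SP-C-rtTA and (tetO)7CMV-Cre alone. Both groups thus carried a Cre recombinase driven through the surfactant protein C promoter by way of a tetracycline-controlled activator, and only the first carried the conditional Gpr116 allele. Each array was a pool of cells from 3 mice aged 8 weeks, taken by collagenase digestion and differential plating and lysed 2 hours after isolation. The comparison asked how deletion of the adhesion receptor Gpr116 in these cells changes their transcripts, here those of the secreted proteins of surfactant.

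Surfactant is a film of lipids and proteins that lowers surface tension in the alveoli. SP-B and SP-C (Sftpb, Sftpc) are small hydrophobic proteins that spread the lipids. Both are made as larger precursors, which the aspartic protease napsin A (Napsa) and the cysteine protease cathepsin H (Ctsh) help to trim in the secretory pathway. SP-A and SP-D (Sftpa1, Sftpd) are collectins, soluble lectins with a collagen-like stem that bind microbes and lipids. Lysozymes cut the cell walls of bacteria, and type II cells secrete them together with surfactant. Sftpa1, Sftpb and Sftpd are also expressed by club cells of the airways, and Lyz2 is a major product of macrophages.

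Start-site sequence from RefSeq (GRCm38.p6) was found for 4 of the 8 genes, and none was found for Sftpc, Sftpd, Napsa and Ctsh. The 250 bases before the annotated start are printed 5′ to 3′. Those of Lyz1 (chr10:117292869-117293118, minus strand) and Lyz2 (chr10:117282273-117282522, minus strand) are shown because these neighbouring genes are copies of each other, which bears on how their values can be read. Capitals mark the longest run the 2 windows share.
Lyz1: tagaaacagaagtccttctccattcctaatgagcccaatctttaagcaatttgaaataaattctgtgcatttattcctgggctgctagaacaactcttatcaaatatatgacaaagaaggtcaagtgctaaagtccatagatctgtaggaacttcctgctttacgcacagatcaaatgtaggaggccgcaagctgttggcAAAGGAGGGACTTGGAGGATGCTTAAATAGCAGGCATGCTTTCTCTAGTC
Lyz2: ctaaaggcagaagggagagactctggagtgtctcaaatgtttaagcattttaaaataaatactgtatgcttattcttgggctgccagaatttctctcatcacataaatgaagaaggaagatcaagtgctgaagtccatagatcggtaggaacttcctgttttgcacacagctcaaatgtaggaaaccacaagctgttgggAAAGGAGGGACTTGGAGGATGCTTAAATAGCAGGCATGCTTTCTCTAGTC
The shared run covered the last 50 bases before the start. Aligned over their whole length, the windows were identical at 200 of 252 alignment columns, or 79.4%. Probe sequences were not used here, so how far either lysozyme probe set also reads the other transcript was not tested, and both sets of values are uncertain to that extent.

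The windows of Sftpa1 (chr14:41131538-41131787, plus strand) and Sftpb (chr6:72304360-72304609, plus strand) are shown because the transcription factor NKX2-1 is a known activator of surfactant protein genes, and its own transcript is among those described below. Capitals mark CTCAAG, the core of its binding motif, searched on both strands.
Sftpa1: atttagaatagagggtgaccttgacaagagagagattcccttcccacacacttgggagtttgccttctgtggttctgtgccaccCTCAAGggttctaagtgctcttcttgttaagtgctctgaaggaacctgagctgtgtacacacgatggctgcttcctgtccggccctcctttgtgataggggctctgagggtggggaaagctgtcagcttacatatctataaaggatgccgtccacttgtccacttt
Sftpb: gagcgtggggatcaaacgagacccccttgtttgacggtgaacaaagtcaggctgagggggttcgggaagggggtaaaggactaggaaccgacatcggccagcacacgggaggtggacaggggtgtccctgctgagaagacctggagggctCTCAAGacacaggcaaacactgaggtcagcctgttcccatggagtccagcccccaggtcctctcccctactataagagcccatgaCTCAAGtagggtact
The core occurred 1 time in the Sftpa1 window, starting 166 bases before the start. It occurred 2 times in the Sftpb window, starting 100 and 15 bases before the start. It occurred 0 times in the windows of Lyz1 and Lyz2. Of 32851 such windows in the RefSeq table, 13.3% held at least 1 match of this core. Motifs of the factors FOXA and C/EBP and the TATA box were searched in the same 4 windows. They matched only in Sftpa1 (TATA, 1 time) and in Lyz1 (C/EBP, 1 time). A match describes these letters and does not show that a factor binds there.

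The values are log2 expression values after robust multi-array averaging (RMA), so a difference of 1 is a change of 2-fold. The table has 35556 probe sets, with array medians of 6.77 to 6.81 and array maxima of 13.32 to 13.43. Gpr116 itself, annotated as Adgrf5, has 1 probe set, whose level was higher with the knockout label. Its values were 11.89, 11.78 and 11.87 in those pools, against 11.49, 11.53 and 11.51 in the control pools. As the position of its probes against the deleted exons was not used here, this probe set checks nothing about the genotype, and every direction below rests on the labels. By Xist and Y-linked genes, labelled knockout 2 and control 1 were male pools and the other 4 female. No first number in the titles is shared between the groups (9, 9 and 11 against 8, 8 and 10), so if it marks a batch, batch and genotype cannot be told apart. All 13 markers of type II cells other than the genes described read above the array median on each of the 6 arrays. Of these, 4 were called higher and 0 lower, with a median difference of 0.14, and 9 did not overlap between the groups. Over all tested genes 3.36% were called higher and 5.13% lower, and 27.6% did not overlap. The 4 were Fabp5, Lamp3, Lpcat1 and Scd1, called in 16, 9, 7 and 6 of 16 alternative settings. Lamp3 and Lpcat1 are also on the list of surfactant processing and storage genes below. The mean of all 13 type II markers was 12.14 to 12.22 in the pools labelled knockout, against 12.01 to 12.02 in the control pools. Club cell markers were called lower in 5 of 8 cases and ciliated cell markers in 8 of 9. In these bulk samples, fewer cells of a type and less RNA per cell cannot be told apart.

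None of the 8 genes passed the test. By limma, with Benjamini-Hochberg adjustment over 19938 genes and a threshold of 0.05, 0 of 8 were higher and 0 of 8 lower in the pools labelled knockout. Over all tested genes 8.49% were called, 3.36% higher and 5.13% lower. At an unadjusted p under 0.05 there were 2 of the 8 genes, Ctsh and Napsa, both higher, against 22.1% of all genes. The difference was positive in 6 genes and negative in 2, with a median of 0.037 on log2, against a median of 0.0033 over all genes. The plot of values by pool shows each gene on an axis of the same length.

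**Figure D1:**
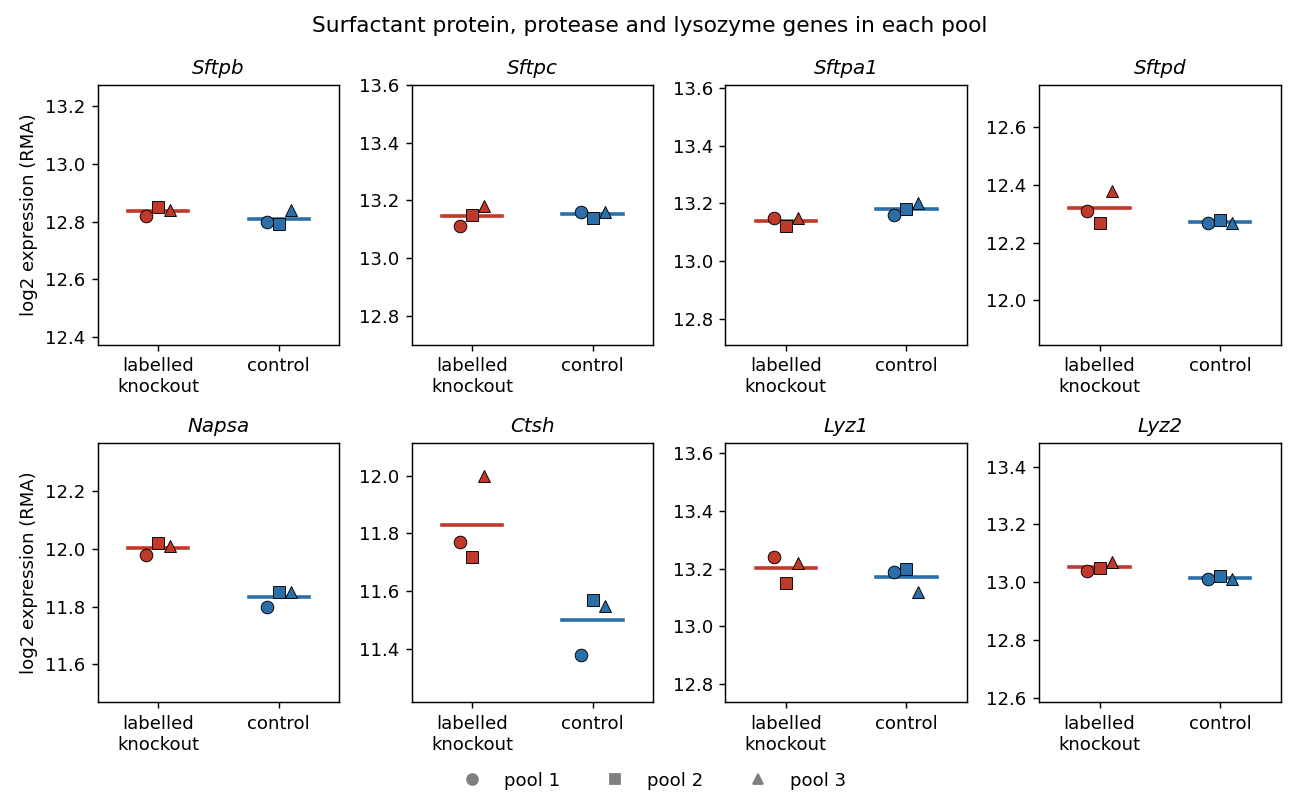
Log2 expression (RMA, vertical axis) of each gene on the 3 pools labelled knockout (red, left) and the 3 control pools (blue, right). Symbols are the pools of a group, lines are group means, and all panels span the same number of log2 units. Ctsh and Napsa show the widest separation, at 0.33 and 0.17, and the surfactant proteins and lysozymes differ by at most 0.047.

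The hydrophobic surfactant proteins stood at nearly the same level in both groups. Sftpb read 12.82, 12.85 and 12.84 in the pools labelled knockout, against 12.80, 12.79 and 12.84 in the control pools. The groups overlapped, since control 3 equalled labelled knockout 3. The difference was 0.027 ± 0.047 on log2 (SE, n = 3 per group; limma adjusted p = 0.814), which is a fold of 1.02 with a 95% interval of 0.943 to 1.1.

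Sftpc read 13.11, 13.15 and 13.18 in the pools labelled knockout, against 13.16, 13.14 and 13.16 in the control pools. The labelled knockout pools lay on both sides of the control values. The difference was -0.0067 ± 0.048 (SE; limma adjusted p = 0.964), a fold of 0.995 with a 95% interval of 0.921 to 1.08. Its sign was positive when the array medians were set equal, with array weights or without labelled knockout 1, so it has no settled direction. Within each array, Sftpb minus Sftpc was -0.29, -0.30 and -0.34 in the pools labelled knockout, against -0.36, -0.35 and -0.32 in the control pools. These differences between probe sets overlapped between the groups.

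The collectins differed little and in opposite directions. Sftpa1 read 13.15, 13.12 and 13.15 in the pools labelled knockout, against 13.16, 13.18 and 13.20 in the control pools. All 3 labelled knockout pools lay below all 3 control pools, by as little as 0.01, which is the rounding step of the table. The difference was -0.04 ± 0.046 (SE; limma adjusted p = 0.697), a fold of 0.973 with a 95% interval of 0.901 to 1.05. Sftpd read 12.31, 12.27 and 12.38 in the pools labelled knockout, against 12.27, 12.28 and 12.27 in the control pools. Labelled knockout 3 was the highest, and labelled knockout 2 equalled controls 1 and 3. The difference was 0.047 ± 0.051 (SE; limma adjusted p = 0.676), a fold of 1.03 with a 95% interval of 0.95 to 1.12.

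In the RefSeq gene order, Mbl1 lies between Sftpa1 and Sftpd. It encodes the mannose-binding lectin MBL-A, another collectin. It read 6.93, 7.11 and 7.43 in the pools labelled knockout, against 7.35, 7.67 and 7.65 in the control pools. The groups overlapped, since labelled knockout 3 lay above control 1, and the difference of -0.40 ± 0.14 did not pass without a replicate block (SE; limma adjusted p = 0.156), while with one it did (adjusted p = 0.0438). The within-array difference of Sftpa1 minus Sftpd was 0.84, 0.85 and 0.77 in the pools labelled knockout, against 0.89, 0.90 and 0.93 in the control pools, without overlap. This difference between probe sets was not tested.

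The processing proteases had the largest differences of the 8 genes. Ctsh, an endopeptidase and aminopeptidase of lysosomes and lamellar bodies, read 11.77, 11.72 and 12.00 in the pools labelled knockout. It read 11.38, 11.57 and 11.55 in the control pools. The groups did not overlap, labelled knockout 3 stood highest and control 1 lowest, and the pools differed more among themselves than for any other of the 8 genes. The means were 11.83 ± 0.15 and 11.50 ± 0.10 (SD, n = 3 each). The difference was 0.33 ± 0.091 (SE; limma adjusted p = 0.0777), a fold of 1.26 with a 95% interval of 1.08 to 1.46 that is not corrected for the number of genes. Without labelled knockout 3 it was 0.245 (adjusted p = 0.162) and without control 1 it was 0.27 (adjusted p = 0.225). With array weights it was 0.36 and passed (adjusted p = 0.0425).

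Napsa read 11.98, 12.02 and 12.01 in the pools labelled knockout, against 11.80, 11.85 and 11.85 in the control pools. The groups did not overlap, and the pools within each group lay close together. The means were 12.00 ± 0.021 and 11.83 ± 0.029 (SD, n = 3 each). The difference was 0.17 ± 0.048 (SE; limma adjusted p = 0.0803), a fold of 1.13 with a 95% interval of 1.04 to 1.22 that is likewise not corrected for the number of genes. The call of Napsa depended on the setting. It passed when the spread was modelled by level with a robust fit (adjusted p = 0.0312) and when genes below the median level were left out (adjusted p = 0.0398), which also reduced the genes adjusted over to 9973. Napsa minus Ctsh within each array was 0.21, 0.30 and 0.01 in the pools labelled knockout, against 0.42, 0.28 and 0.30 in the control pools. These differences between probe sets overlapped between the groups.

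**Figure D2:**
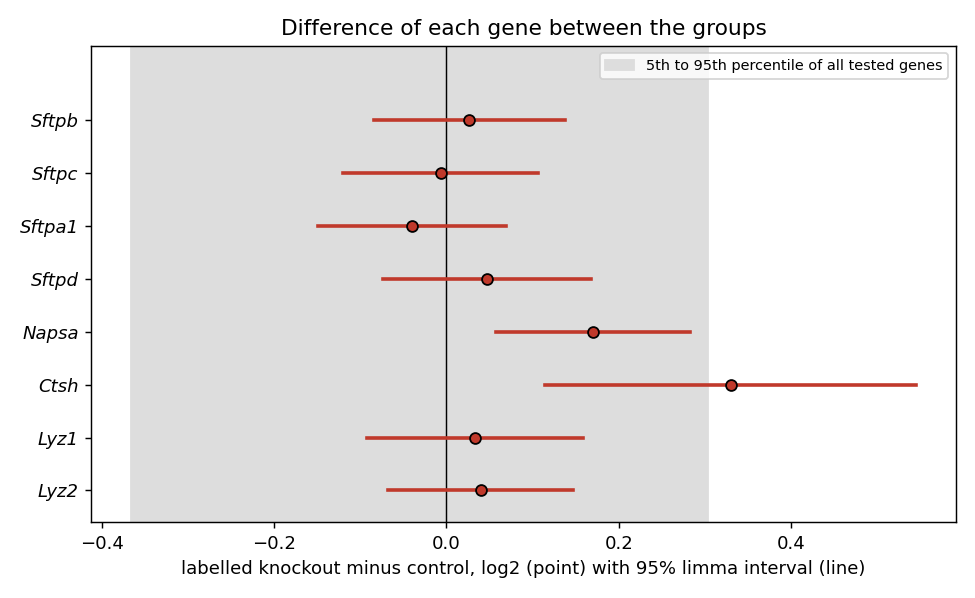
Difference between pools labelled knockout and control pools (horizontal axis, log2) for each gene, as a point with its 95% interval from limma, not corrected for the number of genes. The grey band runs from the 5th to the 95th percentile of the differences of all tested genes, -0.37 to 0.30. The intervals of Ctsh and Napsa lie above 0, and those of the other 6 genes include 0.

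The lysozymes were as alike between the groups as the surfactant proteins. Lyz1, the P lysozyme of the mouse, read 13.24, 13.15 and 13.22 in the pools labelled knockout, against 13.19, 13.20 and 13.12 in the control pools. The groups overlapped. The difference was 0.033 ± 0.053 (SE; limma adjusted p = 0.790), a fold of 1.02 with a 95% interval of 0.938 to 1.12. Lyz2, the M lysozyme, read 13.04, 13.05 and 13.07 in the pools labelled knockout, against 13.01, 13.02 and 13.01 in the control pools. The groups did not overlap, but they were 0.02 apart at the nearest values, and the difference was 0.04 ± 0.046 (SE; limma adjusted p = 0.691), a fold of 1.03 with a 95% interval of 0.954 to 1.11. Within each array Lyz1 minus Lyz2 was 0.20, 0.10 and 0.15 in the pools labelled knockout, against 0.18, 0.18 and 0.11 in the control pools. These differences overlapped as well.

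Lyz2 is also made by macrophages, so their markers are given beside it. Of 14 tested macrophage markers 2 were called higher and 0 lower. These were Cd14, a co-receptor for bacterial lipopolysaccharide (1.07 ± 0.093), and Mpeg1, the pore-forming perforin-2 (1.1 ± 0.10; SE, limma adjusted p = 0.00389 for both). Of the 14 markers 9 read below the array median on every array. The other 12 were not called, with differences of -0.18 to 0.12. Of these 4 were negative, Fcgr1 had the same mean of 5.86 in both groups, and the rest were positive. The median difference of all 14 was 0.035. The mean of all 14, in which Cd14 and Mpeg1 had by far the largest differences, was 6.23 to 6.26 in the pools labelled knockout. It was 6.05 to 6.12 in the control pools, and it does not show a rise of the macrophage markers in general. Club cell markers, beside Sftpa1, Sftpb and Sftpd, had a mean of 11.51 to 11.68 in the pools labelled knockout, against 12.00 to 12.08 in the control pools. The part of either cell type in the values of these genes was not tested.

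Of the 8 genes, 3 had all labelled knockout pools above all control pools (Ctsh, Napsa and Lyz2) and 1 had them all below (Sftpa1). Groups that did not overlap were seen in 27.6% of all tested genes. Among the 151 other genes that read at least as high as the lowest of the 8, at a mean of 11.67 or more, they were seen in 37.7%. The standard deviation between pools ran from 0.015 to 0.15 in the pools labelled knockout and from 0.0058 to 0.10 in the control pools for the 8 genes. The medians over all genes were 0.091 and 0.062. Labelled knockout 3 was the highest array of its group in 4 of the 8 genes, namely Sftpc, Sftpd, Ctsh and Lyz2.

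The level of these genes on the array may limit what their differences can show. Lyz1 read 0.08 to 0.29 below the highest value of its array, Sftpa1 0.17 to 0.28, Sftpc 0.21 to 0.27 and Lyz2 0.28 to 0.40. Array values can be compressed near the top of the scale, and whether the folds of these genes are understated was not tested. Of the 151 other genes above, chosen by their mean over all 6 arrays, 13 were called higher and 8 lower, or 13.9%, and 25.8% had an unadjusted p under 0.05. In 8 of these 21 called genes 1 group had a mean below 11.67. The median absolute difference was 0.04 for the 8 genes, against 0.073 for the 151. Chil1 and Scd1, picked after their values were seen, read near the maximum in both groups and were called. The chitinase-like Chil1 read 13.13, 13.09 and 13.17 in the pools labelled knockout, against 12.87, 12.87 and 12.86 in the control pools (0.26 ± 0.048, SE; limma adjusted p = 0.0205). The desaturase Scd1 read 13.08, 13.10 and 13.10 in the pools labelled knockout, against 12.91, 12.89 and 12.84 in the control pools (0.21 ± 0.048, SE; limma adjusted p = 0.0398). Chil1 lost its call without labelled knockout 3 or any 1 control array (adjusted p = 0.0653 to 0.0953), and Scd1 without any 1 of the 6 arrays (adjusted p = 0.0599 to 0.15). Neither passed when replicate number was a block (adjusted p = 0.0534 for Chil1 and 0.0926 for Scd1).

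**Figure D3:**
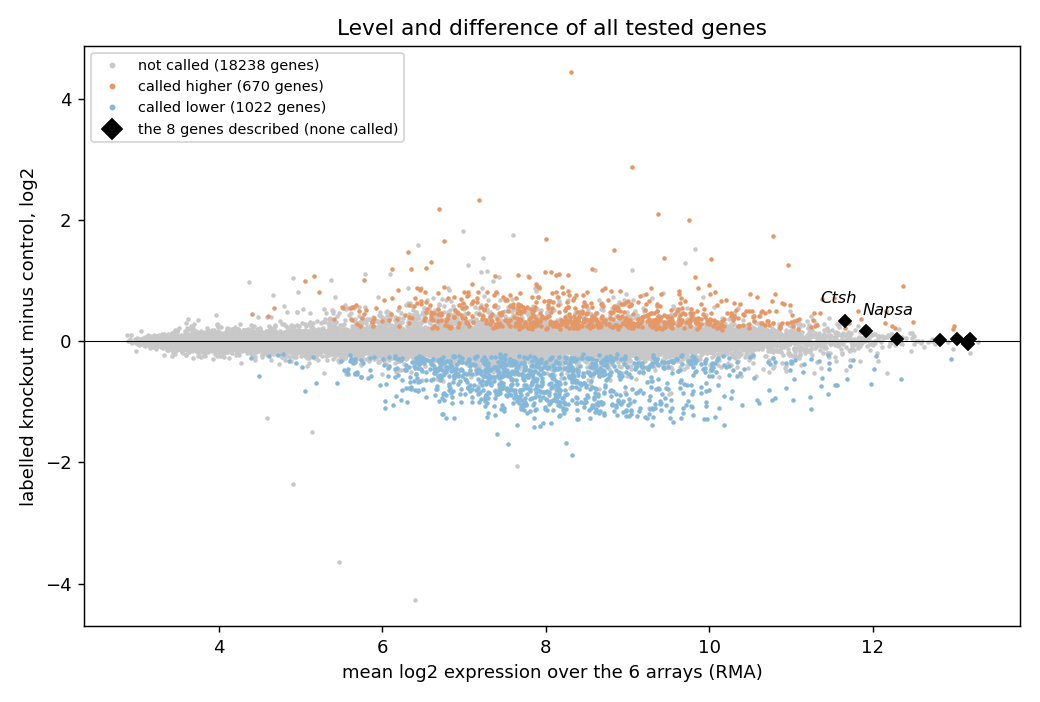
Mean log2 expression over the 6 arrays (horizontal axis) and difference between pools labelled knockout and control pools (vertical axis, log2) for all 19938 tested genes. Orange and blue points are genes called higher (670) and lower (1022), grey points were not called, and black diamonds are the 8 genes described. The diamonds lie at the bright end, close to the line of no difference except for Ctsh and Napsa.

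Of 18 genes listed under surfactant processing and storage beside these proteases, 2 were called higher and 0 lower. The median difference was 0.11, against 0.0033 over all genes. The list is broad, and whether each gene on it acts on surfactant was not tested. At an unadjusted p under 0.05 there were 7 of the 18, and 8 did not overlap between the groups. Lamp3, a glycoprotein of the lamellar body membrane, read 12.61, 12.57 and 12.78 in the pools labelled knockout, against 12.37, 12.31 and 12.33 in the control pools (0.32 ± 0.068, SE; limma adjusted p = 0.0337). Lpcat1, an acyltransferase that makes dipalmitoyl phosphatidylcholine, stood at 0.22 ± 0.050 (adjusted p = 0.0405), and the tetraspanin Cd63 at 0.24 ± 0.066 without passing (adjusted p = 0.0747). Both calls were lost without labelled knockout 3 or any 1 control array, that of Lpcat1 also without labelled knockout 1, the highest adjusted p being 0.168. Both missed the threshold with a replicate block as well (adjusted p = 0.0522 for Lamp3 and 0.0765 for Lpcat1), and 0 of the 18 genes were called. The 7 other cathepsins on the list (Ctsa, Ctsb, Ctsc, Ctsd, Ctsl, Ctss and Ctsz) ranged from -0.093 to 0.18, with 0 called by limma and a lowest adjusted p of 0.149, that of Ctsz.

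Of 21 tested regulators of surfactant genes, mostly transcription factors, 0 were called higher and 2 lower, with a median difference of -0.0033. At an unadjusted p under 0.05 there were 9 of the 21, and the groups did not overlap in 8. Nkx2-1, whose motif is marked in the sequences above, read 10.51, 10.44 and 10.50 in the pools labelled knockout, against 10.44, 10.52 and 10.58 in the control pools. The groups overlapped, and the difference was -0.030 ± 0.057 (SE; limma adjusted p = 0.829). Both regulators that fell were receptors for retinoic acid.

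Rara read 7.69, 7.78 and 7.65 in the pools labelled knockout, against 8.12, 8.06 and 8.15 in the control pools (-0.40 ± 0.057, SE; limma adjusted p = 0.00907). Rarb read 8.31, 8.09 and 7.67 in the pools labelled knockout, against 9.27, 8.96 and 9.34 in the control pools (-1.17 ± 0.17, SE; limma adjusted p = 0.0102). Neither gene overlapped between the groups. The mean of 9 ciliated cell markers ranked the pools labelled knockout as Rarb did, at 8.52, 8.18 and 8.03, against 9.09, 9.03 and 9.10 in the control pools, and its part in the result was not tested. Rara was not called without control 3 (adjusted p = 0.0540), nor Rarb without control 1 or control 3 (adjusted p = 0.0532 and 0.0603). The co-activator Wwtr1 came next, at 0.16 ± 0.053 without passing (adjusted p = 0.125).

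Relatives of the collectins and lysozymes gave no call in the fit to all 6 arrays without a filter, weight or block. Of 12 collectins and lung lectins 0 passed by limma and 2 had an unadjusted p under 0.05, namely Mbl1 and the galectin Lgals3, at 0.37 ± 0.096 (SE; adjusted p = 0.0646). When replicate number was a block both passed (adjusted p = 0.0438 for Mbl1 and 0.0363 for Lgals3), and the same-numbered differences of Mbl1 were -0.42, -0.56 and -0.22. Mbl1 passed in 1 of 16 alternatives and Lgals3 in 4. Beside the block, Lgals3 passed with genes below the median level left out (limma adjusted p = 0.04655). It also passed with array weights (adjusted p = 0.0322) and without labelled knockout 2 (adjusted p = 0.0311). The ficolin Fcnb stood at 0.10 ± 0.056 (adjusted p = 0.371). Of 7 tested members of the lysozyme family other than Lyz1 and Lyz2, 0 passed and 0 had an unadjusted p under 0.05. Of the 7 genes 6 read below the array median on every array. The smallest p among them belonged to Lyg1, Lyzl6 and Lyg2, with differences of -0.033, -0.050 and -0.043.

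Of 18 other secreted proteins of the airspace, which share the fluid with the surfactant proteins and lysozymes, 6 were called higher, 2 lower and 10 not, with a median difference of 0.29. The mean of the 18 was 9.89, 9.72 and 10.39 in the pools labelled knockout, against 9.58, 9.48 and 9.47 in the control pools, with labelled knockout 3 standing apart. Without that pool 5 of the 18 were called higher and 2 lower. The 3 with the smallest p all rose. The resistin-like protein Retnla rose by 1.74 ± 0.10, the serum amyloid protein Saa3 by 4.45 ± 0.28 and the siderophore-binding lipocalin Lcn2 by 0.91 ± 0.068 (SE; limma adjusted p = 0.00187, 0.00187 and 0.00324). Lcn2 read 12.69, 12.89 and 12.89 in the pools labelled knockout, against 11.90, 11.92 and 11.92 in the control pools.

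Among 14 receptors for surfactant proteins and genes of surfactant clearance, 2 were called higher and 1 lower, with a median difference of 0.035. Csf2, the growth factor that alveolar macrophages need to clear surfactant, read 7.98, 7.98 and 8.02 in the pools labelled knockout, against 7.38, 7.46 and 7.36 in the control pools (0.59 ± 0.052, SE; limma adjusted p = 0.00389). Its call held without each of the 6 arrays. Gpr116 itself was the second (0.34 ± 0.052; adjusted p = 0.0119, and 0.0596 to 0.0648 without any 1 control array). Pparg, a nuclear receptor of lipid metabolism, fell by 0.55 ± 0.11 (adjusted p = 0.0308). Its adjusted p was 0.0542 to 0.121 without labelled knockout 2, labelled knockout 3 or any 1 control array.

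**Figure D4:**
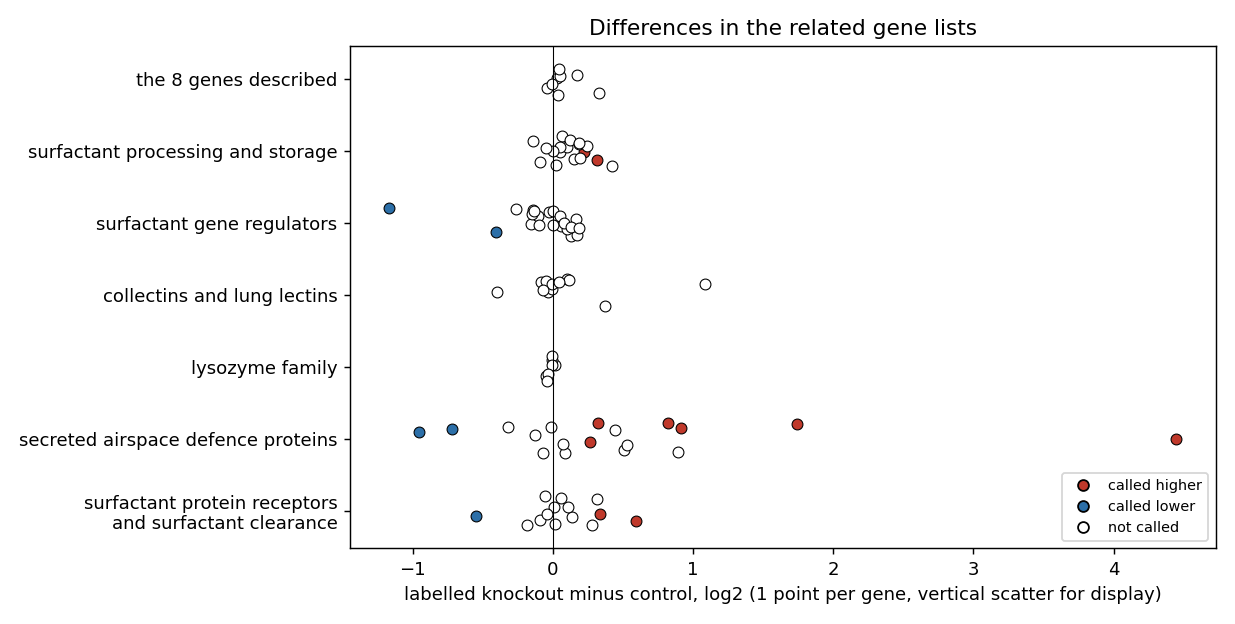
Difference between pools labelled knockout and control pools (horizontal axis, log2) of each gene in the related lists, with 1 point per gene and vertical scatter for display only. Red points were called higher, blue points lower and white points were not called by limma at an adjusted p under 0.05. The 8 genes described hold no call, and the secreted defence proteins reach furthest to the right, with Saa3 at 4.45.

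The genes whose pattern over the 6 arrays was most like that of Ctsh and Napsa, the members with the smallest p, were sought by Pearson's r among 4822 genes that varied between arrays by an SD of at least 0.15. Closest to Ctsh were the diacylglycerol kinase Dgkd (r = 0.995), Ahcyl2 (0.990) and the peptide transporter Slc15a2 (0.990). Slc15a2 read 10.90, 10.75 and 11.21 in the pools labelled knockout, against 9.95, 10.34 and 10.36 in the control pools, with labelled knockout 3 highest and control 1 lowest, as in Ctsh. Closest to Napsa were the lipid droplet protein Plin2 (0.997), Bex1 (0.996) and the probe set annotated to the microRNA gene Mir382 (0.993). Plin2 read 10.42, 10.65 and 10.56 in the pools labelled knockout, against 9.74, 9.89 and 9.96 in the control pools. All 6 points of each r share the split into 2 groups, and 83 and 120 genes had an r over 0.95 with Ctsh and Napsa, so the likeness is a description of these arrays.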

How the data were processed

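Per the submitters' processing notes, the authors used Affymetrix Expression Console 1.1 and its RMA method, and the deposited table holds log2 values. The method removes background, gives all arrays 1 distribution and combines the probes of a probe set. The 6 arrays carry no counts, and their number limits the precision. The array's genome build is not given in the sources used. Of 35556 probe sets, 21789 had 1 gene symbol, 1621 several and 12146 none. The 999 genes with several probe sets of 1 symbol were represented by the probe set of highest mean.

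Groups were taken from the titles. Differences were tested in R 4.3.3 by limma 3.58.1 (two-sided, moderated by eBayes) without a filter, weight or block, with Benjamini-Hochberg adjustment over all genes. The fit was tested on simulated data. Alternatives covered probe sets, normalization, a filter on low values, the variance model, array weights, the replicate number, female pools alone, each array left out and, added after seeing the data, all probe sets. The labels do not say what the replicate numbers mark. Deviations of same-numbered arrays from their group means correlated at 0.192, 0.103 and 0.111. Differently numbered arrays gave -0.135 to 0.043. Deviations within a group cancel, so some matching of the arrays can correlate without a pairing, and these values do not show one. P-values weigh each difference against the spread between pools of mice, which eBayes draws toward a value common to all genes. For genes with closely alike pools, the SE can be larger than their own pools would give. Lyz2 had an SE of 0.046, with SDs of 0.015 in the pools labelled knockout and 0.0058 in the control pools. The genes described and the 15 other lists were chosen with earlier results of these data known. From each list of related genes, up to 3 with the smallest p were to be named. Any other gene named was picked after its values were seen. Prdx6, Lalba and 6 marker genes had no 1-symbol probe set and were not analysed here.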

Additional observations from a re-analysis of the deposited data

How the results depend on the processing

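By limma 0 of the 8 genes were called higher and 0 lower in 13 of 16 alternatives, with 1 or 2 at an unadjusted p under 0.05. With genes below the median level left out 1 was called higher (Napsa), with trend and robust fitting 1 (Napsa) and with array weights 1 (Ctsh). Leaving out each array in turn gave 0 calls in either direction, and the replicate number as a block gave 0 (adjusted p = 0.0676 for Ctsh and 0.149 for Napsa). In the 4 female pools alone Ctsh stood at 0.325 (adjusted p = 0.152) and Napsa at 0.145 (0.257). Over the alternatives Ctsh ranged from 0.245 to 0.385 (adjusted p = 0.0425 to 0.225) and Napsa from 0.145 to 0.183 (0.0312 to 0.257). Leaving out each array, Sftpc ranged from -0.023 to 0.012. Its sign turned positive with equal array medians (0.0067), with array weights (0.0050) and without labelled knockout 1 (0.012), and the cause was not tested. The other 7 genes kept their direction in all 16. With the replicate block 5 airspace defence genes were called higher, and in the female pools 3 higher and 1 lower, while 0 regulators were then called lower. Values near the top of the scale may limit what 3 pools per group can show, which was not tested.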

Other observations

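Several secreted proteins of the airways stood out on labelled knockout 3 and not on the other arrays of its group, a pattern noticed after the values were seen and not tested. Reg3g, an antibacterial lectin, read 7.72, 7.35 and 9.91 in the pools labelled knockout, against 7.68, 7.26 and 6.78 in the control pools. Ltf, the iron-binding lactoferrin, read 7.12, 6.64 and 9.25 in the pools labelled knockout, against 6.96, 6.72 and 6.66 in the control pools. Bpifb1, a secreted protein of the airway epithelium, read 6.84, 6.77 and 9.03 in the pools labelled knockout, against 7.09, 6.95 and 7.01 in the control pools. The secretoglobin Scgb3a1 read 10.13, 10.15 and 12.02 in the pools labelled knockout, against 10.65, 10.90 and 10.50 in the control pools. None of these was called by limma, with adjusted p of 0.391, 0.473, 0.665 and 0.952. Ctsh was highest on the same array, and its difference without that array is given above.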
